A study of Mus musculus with 12 samples.

Results

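The levels of 10 genes of the Toll-like receptor (TLR) system were measured in B cells of the mouse peritoneal cavity (PerC). The genes were listed by name: the receptors Tlr1, Tlr2, Tlr4, Tlr6, Tlr7 and Tlr9, the receptor relative Cd180 with its partner Ly86 (MD-1), the chaperone Unc93b1 and the adaptor Myd88. All 10 were found among the 56941 rows of the count table, and all 10 were among the 15148 genes that passed the filter on low counts. Bulk RNAseq was done on 12 libraries, with 3 libraries of B2 and 3 of MemB from either genotype, control or KI. B2 were sorted as IgD+IgM+ and MemB as IgD-IgM-, so that MemB are class-switched cells. KI mice carried Cd21Cre and R26 LSL-Gpr34Q340X-IRES-GFP, an allele in which Cre turns on a truncated GPR34 (Q340X) together with GFP. GPR34 is a receptor for lysophosphatidylserine, and the KI allele models the gain-of-function truncations of mucosal B cell lymphoma. Alleles of the control mice are not given in the sources used here. According to the methods of the study, mice were between 8 and 20 wk old and groups were matched for age and sex. Cd21Cre acts in mature B cells and does not recombine in every one of them, and the sort was not stated to select GFP+ cells.

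TLRs recognize microbial products and signal through adaptors that end in NF-kB and interferon regulatory factors. At the cell surface, TLR2 pairs with TLR1 or TLR6 to detect bacterial lipoproteins, and TLR4 detects lipopolysaccharide with MD-2 (Ly96). TLR7 senses single-stranded RNA and TLR9 senses unmethylated CpG DNA in endosomes, where UNC93B1 delivers them. MYD88 is the adaptor used by all of these receptors. CD180 (RP105) resembles the outside of TLR4 but lacks its signalling domain, and reaches the surface of B cells with MD-1. B cells are known for responding to CpG DNA, TLR7 ligands and lipopolysaccharide with division and antibody secretion.

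Depth was between 29895031 and 39732039 counts per library, with 17352 to 18692 genes detected and 29.3% to 38.3% of counts in ribosomal RNA genes. Gpr34 itself, which the KI allele adds, ranged from 3.42 to 30.8 CPM (counts scaled to library size) in the 6 control libraries and from 100.3 to 168 CPM in the 6 KI libraries, so that the genotype labels were matched in every library. A list of 8 B cell genes summed to between 3511 and 4055 CPM in all 12 libraries. The follicular B2 list of 5 genes summed to between 2565 and 3043 CPM in B2 and between 399 and 867 CPM in MemB. It includes Ighd, the transcript of the sorting marker IgD, at 1297 to 1694 CPM in B2 and 66.4 to 251 CPM in MemB. Its difference is thus partly set by the sort. The memory list of 6 genes summed to between 383 and 474 CPM in B2 and between 918 and 5217 CPM in MemB. It includes the class-switched transcript Igha, at 45.0 to 66.0 CPM in B2. Igha was at 352 to 1078 CPM in control MemB and 2350 to 4738 CPM in KI MemB. Of 15 macrophage and monocyte markers, 7 had 0 counts in every library, among them Cd14, Mertk, Gata6 and C1qa, as had all 6 neutrophil markers. The whole macrophage list summed to between 50.7 and 97.7 CPM in B2 and between 68.6 and 134 CPM in MemB, with Itgam, which is also on the B-1 list, at up to 99.0 CPM and Csf1r at up to 13.8 CPM. The 7 T cell markers summed to between 81.6 and 136 CPM in control MemB and between 19.2 and 95.03 CPM in the other 3 groups. The 5 NK cell markers summed to between 12.9 and 46.2 CPM in control MemB and between 0.521 and 14.4 CPM in the others, and the 6 dendritic cell markers to between 8.40 and 139 CPM in all 12 libraries. None of the T cell, NK cell and dendritic cell markers was at 0 in every library. Mast cell transcripts were high in 3 libraries: the 5 markers in the table summed to 45.0 CPM in control MemB replicate 1, 241 CPM in control MemB replicate 3 and 74.9 CPM in KI B2 replicate 3, and to 1.77 CPM or less in the other 9 libraries.

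Tlr1 and Tlr6 need their sequences shown before their values, because reads of one can be those of the other. Both lie on the minus strand of chromosome 5 (GRCm39, GENCODE M39), Tlr1 at chr5:65082022-65090941 and Tlr6 at chr5:65108704-65203497. Their coding sequences are each 2385 bases long and were 74.1% identical over 2371 aligned bases. Identity was 57.8%, 72.6% and 92.1% in the first, middle and last part when the alignment was cut into 3 equal parts. The longest run without a difference was 229 bases, at chr5:65082880-65083108 in Tlr1 and chr5:65111171-65111399 in Tlr6, and reads of 50 bases from inside it fit both genes. It is shown because it is the longest stretch in which the genes cannot be told apart:
Tlr1 and Tlr6, identical run: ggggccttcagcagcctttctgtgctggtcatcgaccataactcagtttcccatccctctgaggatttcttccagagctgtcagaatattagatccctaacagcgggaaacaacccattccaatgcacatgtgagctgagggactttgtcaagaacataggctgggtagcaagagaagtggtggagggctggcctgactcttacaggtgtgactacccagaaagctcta
By contrast, a window of 90 bases in the first part of the coding sequence held 50 mismatches, which capitals mark in both genes. It lies at chr5:65083995-65084084 in Tlr1 and chr5:65112280-65112369 in Tlr6, and is shown because reads from it belong to 1 gene only:
Tlr1, diverged window: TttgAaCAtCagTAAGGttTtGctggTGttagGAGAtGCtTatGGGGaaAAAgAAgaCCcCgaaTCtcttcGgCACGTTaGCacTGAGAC
Tlr6, diverged window: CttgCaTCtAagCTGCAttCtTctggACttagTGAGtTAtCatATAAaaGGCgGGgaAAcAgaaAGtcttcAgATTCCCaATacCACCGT
Of the 2997 stretches of 50 bases in the main Tlr1 transcript, 454 (15.1%) also occur in Tlr6, and 10.6% of those of the Tlr6 transcript occur in another gene. Tlr7 shared 6.51% of such stretches with other genes, and the other 7 members shared 0. These shares are of single stretches. The libraries were read in pairs, and a pair fits several genes only where both of its reads do.

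The deposited values showed this sharing directly. RSEM splits a read that fits several genes, which leaves expected counts that are not whole. The values of both Tlr1 and Tlr6 were not whole in any of the 12 libraries, but their sum was whole in all 12. Of the other members, Cd180 had values that were not whole in 11 libraries, and the remaining 7 had whole values throughout. Tlr6 took between 0.841% (control B2 replicate 1) and 13.5% (KI B2 replicate 2) of the sum. In control B2 alone the share was 0.841%, 12.5% and 1.51% in the 3 replicates. The shares of each group overlapped those of every other group.

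**Figure D1:**
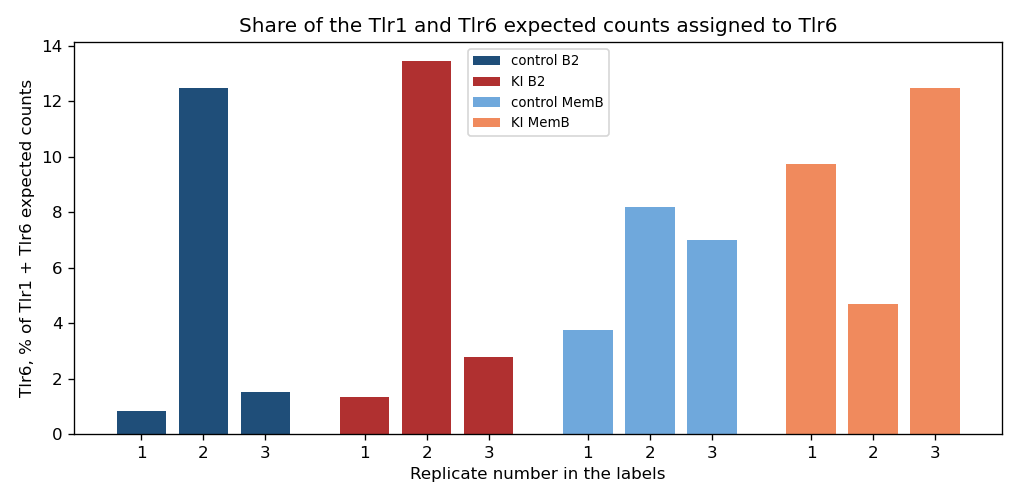
Share of the summed Tlr1 and Tlr6 expected counts that was given to Tlr6, as a bar for each library in percent, by group and replicate number. The bars run from 0.841% to 13.5%, and bars of each group overlap those of the others.

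On a scale that allows genes to be compared, CPM per kb of exon, the 10 members spanned a wide range. Cd180 (45.8 ± 19.3, SD, n = 12 libraries), Tlr1 (37.3 ± 12.5), Unc93b1 (35.2 ± 7.63) and Ly86 (32.8 ± 4.804) were highest, and their libraries were intermixed. Each of the first 3 exceeded the next gene in only 6 or 7 of 12 libraries, so that their order was not larger than the spread. Below them, Ly86 exceeded Tlr9 (22.7 ± 7.08) in 11 libraries, Tlr9 exceeded Tlr7 (12.5 ± 4.73) in 10, and Tlr7 exceeded Tlr4 (3.15 ± 1.71) in all 12. Tlr4 was above Tlr6 (1.67 ± 1.19) in 8 libraries, and Tlr6, Myd88 (1.39 ± 0.776) and Tlr2 (1.17 ± 1.16) were not separated. Of the members, Tlr7, Tlr9 and the chaperone Unc93b1 were thus higher per kb than the lipopolysaccharide receptor Tlr4. The surface receptor Tlr1 was as well, and the TLRs that are not members were not placed on this scale. TLR2 transcripts were low although those of its partner TLR1 were among the most abundant. When lengths of the longest transcript were used, Tlr1 moved from rank 2 to rank 4 behind Unc93b1 and Ly86, and ranks 5 to 10 did not change, but the means of Tlr7 and Tlr4 came closer together (13.1 and 5.37 CPM per kb). In bulk samples, a gene that fewer cells express and a gene expressed less per cell cannot be told apart.

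**Figure D2:**
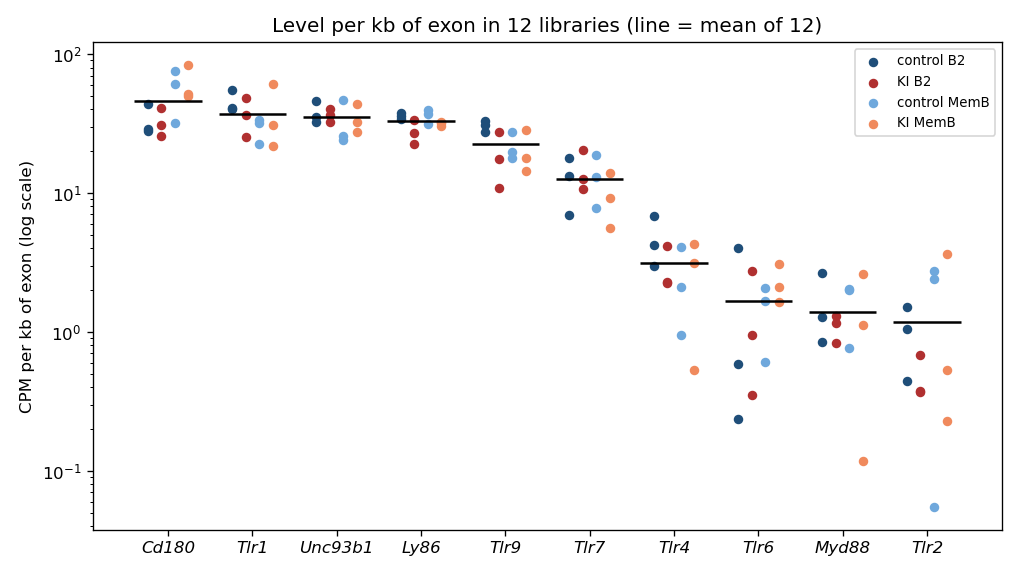
CPM per kb of exon on a log scale for each member, with 1 point for each of the 12 libraries coloured by group and a line at the mean of all 12. Cd180, Tlr1, Unc93b1 and Ly86 overlap near the top, Tlr7 lies above Tlr4 in all 12 libraries, and the points of Tlr2, Tlr6 and Myd88 spread widest.

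Members also differed in how closely libraries of a group agreed. The pooled SD within groups, on the log2 CPM scale, was 0.18 for Ly86, and 0.673% of the genes tested had a smaller one. It was 0.35 for Unc93b1, 0.45 for Tlr9, 0.46 for Cd180, 0.49 for Tlr1 and 0.62 for Tlr7. It was 1.04 for Tlr4, 1.26 for Myd88, 1.37 for Tlr6 and 1.90 for Tlr2, against a median of 1.12 over all genes tested. The 3 control MemB libraries had on average 330.0 Tlr2 counts, with a coefficient of variation of 84.4%. Over the 12 libraries, the highest value was 1.78 times the lowest for Ly86, 1.95 times for Unc93b1, 22.5 times for Myd88 and 67.0 times for Tlr2.

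The first question was whether the KI allele changed these genes in MemB. None of the 10 members was a differentially expressed gene (DEG, an adjusted p below 0.05 with a log2 fold change above 1 or below -1 by edgeR), against 0.284% of all genes tested. None had an unadjusted p below 0.05 either (11.1% of genes), none was a DEG by DESeq2 (3.17% of genes), and for none did the 3 KI and 3 control libraries separate (12.1% of genes). Log2 fold changes ran from -0.46 (Tlr7) to 0.65 (Tlr6), 5 of them positive and 5 negative, with a median of 0.00 beside -0.03 over all genes tested. The lowest adjusted p was 0.745, for Tlr1 (edgeR).

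How large a KI effect the data leave room for depended on the member. In MemB, the 95% confidence interval of the log2 fold change ran from -0.43 to 0.63 for Unc93b1, from -0.74 to 0.35 for Ly86, from -0.44 to 0.73 for Cd180 and from -0.85 to 0.67 for Tlr9. With all 12 libraries, a log2 fold change of 1 in either direction lay outside the interval of these 4 genes. This bound did not hold with fewer libraries: without the 3 libraries with mast cell transcripts the log2 fold change was 0.98 (SE 0.41) for Cd180 and 0.54 (SE 0.37) for Unc93b1, and without replicate 3 of every group it was 0.63 (SE 0.30) for Unc93b1. The interval was -1.34 to 0.42 for Tlr7 and -0.30 to 1.05 for Tlr1. It was far wider for Tlr4 (-1.29 to 1.60), Tlr6 (-1.59 to 2.89), Myd88 (-2.81 to 2.16) and Tlr2 (-2.77 to 2.30).

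The same question was asked in B2. Again none of the 10 members was a DEG, against 0.0066% of all genes, which is 1 gene. None had an unadjusted p below 0.05 (5.74% of genes) or was a DEG by DESeq2 (0.284% of genes). Of the 10 log2 fold changes, 9 were negative, with a median of -0.34 beside -0.03 over all genes tested. The members share their libraries, so these 9 are not independent of each other. The lowest p was that of Tlr9, with a log2 fold change of -0.70 (SE 0.37, interval -1.46 to 0.06, unadjusted p = 0.0703, adjusted p = 0.851 by edgeR). Ly86 was the member whose KI B2 libraries all lay below the control B2 libraries, which 4.99% of genes did, and its log2 fold change was -0.37 (interval -0.92 to 0.17, adjusted p = 0.936 by edgeR). The difference of the KI effect between MemB and B2 was also tested, and 0 of the 10 members was a DEG (0.066% of genes by edgeR and 1.34% by DESeq2) or had an unadjusted p below 0.05 (8.49% of genes). The lowest adjusted p of that test was 0.767, for Tlr1.

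**Figure D3:**
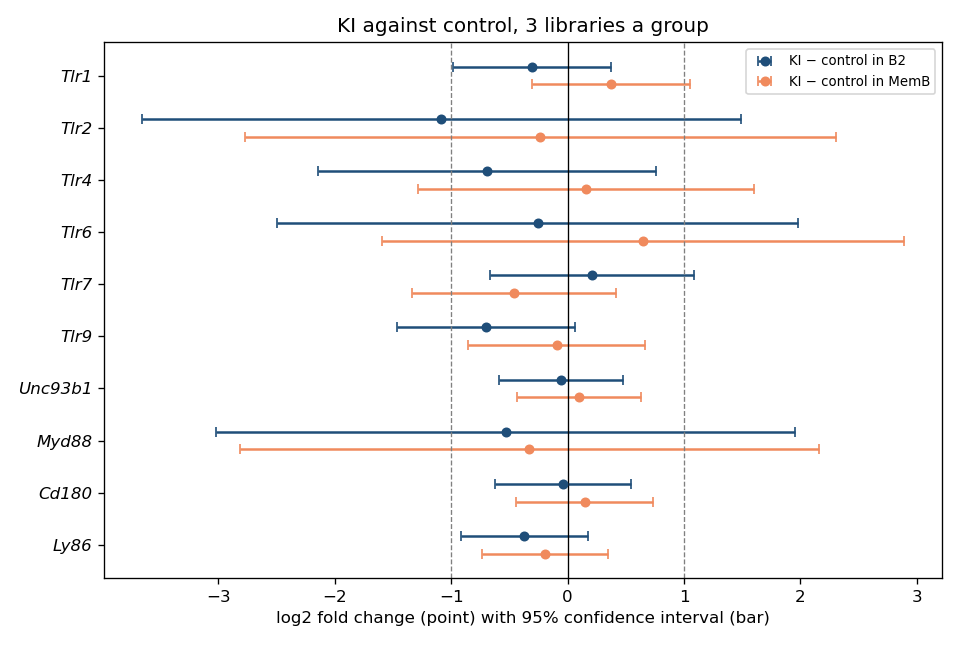
Log2 fold change of KI against control for each member in B2 and in MemB (points) with its 95% confidence interval (bars), from 3 libraries a group, and dashed lines at -1 and 1. All of these intervals include 0, and those of Tlr2, Tlr6 and Myd88 are the widest.

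Then MemB were compared with B2. Averaged over the genotypes, none of the 10 members was a DEG (1.01% of genes were by edgeR and 3.9% by DESeq2), and 1 member, Cd180, passed an adjusted p below 0.05 without the limit on fold change (1.36% of genes did by edgeR and 4.55% by DESeq2). Cd180 was also the only member with an unadjusted p below 0.05 (12.9% of genes), and for no member did all 6 MemB libraries separate from all 6 B2 libraries (1.26% of genes). In control mice alone and in KI mice alone, 0 members were DEGs (0.264% and 0.363% of genes) or passed an adjusted p below 0.05 (0.284% and 0.389% of genes by edgeR, 2.69% and 2.67% by DESeq2), and Cd180 was the only member with an unadjusted p below 0.05 (10.6% of genes in each). The median log2 fold change of the members was -0.03, beside 0.02 over all genes tested.

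Cd180 had 203, 134 and 129.6 CPM in the 3 control B2 libraries and 120.2, 144 and 189 CPM in KI B2. It had 352, 148 and 282 CPM in control MemB and 393, 234 and 239.6 CPM in KI MemB. In KI mice every MemB library was above every B2 library, which 7.3% of genes showed, while in control mice replicate 2 of MemB lay among the B2 values. Cd180 was 1.79-fold higher in MemB on average (log2 fold change 0.84, SE 0.20, interval 0.42 to 1.26, adjusted p = 0.0277 by edgeR and 0.0242 by DESeq2). The log2 fold change was 0.75 (adjusted p = 0.392) in control mice and 0.93 (adjusted p = 0.217) in KI mice by edgeR, and the KI effect on Cd180 did not differ detectably between MemB and B2 (difference 0.19, interval -0.64 to 1.02). Cd180 lies at chr13:102830041-102876137 on the plus strand (GRCm39), where Mast4 overlaps it on the other strand, and the strand setting of the count is not given in the sources used here.

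This call depended on which libraries were kept. Without any single library, or without replicate 3 of every group, the averaged log2 fold change stayed between 0.70 and 0.98. The call was lost when any 1 of 7 libraries was left out (adjusted p between 0.0510 and 0.119 by edgeR): control B2 replicates 2 and 3, KI B2 replicates 1 and 2, control MemB replicates 1 and 3, or KI MemB replicate 1. Of these, the control MemB libraries are the ones with mast cell transcripts named above. Without them and KI B2 replicate 3, the log2 fold change of Cd180 was 0.53 (adjusted p = 0.483), with -0.07 in control mice, where a single MemB library is left, and 1.14 in KI mice (adjusted p = 0.148 by edgeR). Other marker lists also moved with the groups. The sort placed B1 cells (IgD-IgM+) outside both gates, and 7 B-1 markers, none of them at 0 in every library, summed to between 3643 and 5502 CPM in B2 and between 6053 and 7072 CPM in MemB. The 8 plasma cell markers, none of them at 0 in every library, summed to between 314 and 456 CPM in control B2 and 409 and 650.3 CPM in control MemB, which overlapped, and to between 248 and 402 CPM in KI B2 and 447 and 588 CPM in KI MemB, which did not. The macrophage list overlapped between control B2 (53.8 to 75.2 CPM) and control MemB (68.6 to 134 CPM), but not between KI B2 (50.7 to 97.7 CPM) and KI MemB (105 to 124 CPM). The T cell and NK cell lists were higher in control MemB (81.6 to 136 and 12.9 to 46.2 CPM) than in control B2 (19.2 to 74.3 and 0.552 to 7.81 CPM), but in KI MemB (38.9 to 52.6 and 0.521 to 6.78 CPM) they overlapped those of KI B2 (43.9 to 95.03 and 1.56 to 14.4 CPM). The part of these transcripts in the Cd180 difference was not tested.

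MD-1, encoded by Ly86, is the partner of CD180, and Ly86 did not pass the test that Cd180 passed. Ly86 had 140.4, 156 and 148 CPM in control B2 and 112, 92.8 and 139 CPM in KI B2. It had 165, 130.2 and 154 CPM in control MemB and 133, 135 and 126 CPM in KI MemB. MemB and B2 overlapped in both genotypes, and the averaged log2 fold change was 0.10 (interval -0.28 to 0.49, adjusted p = 0.890 by edgeR). The ratio of Cd180 to Ly86 CPM was between 0.857 and 1.45 in control B2, 1.08 and 1.55 in KI B2, 1.14 and 2.14 in control MemB, and 1.73 and 2.96 in KI MemB. It was 1.61-fold higher in MemB (two-sided exact permutation test within genotypes, p = 0.025, n = 6 MemB and 6 B2 libraries, smallest possible p 0.005). This ratio was chosen after its values had been seen, and without the 3 libraries with mast cell transcripts its log2 difference fell from 0.69 to 0.44 (exact permutation p = 0.225).

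**Figure D4:**
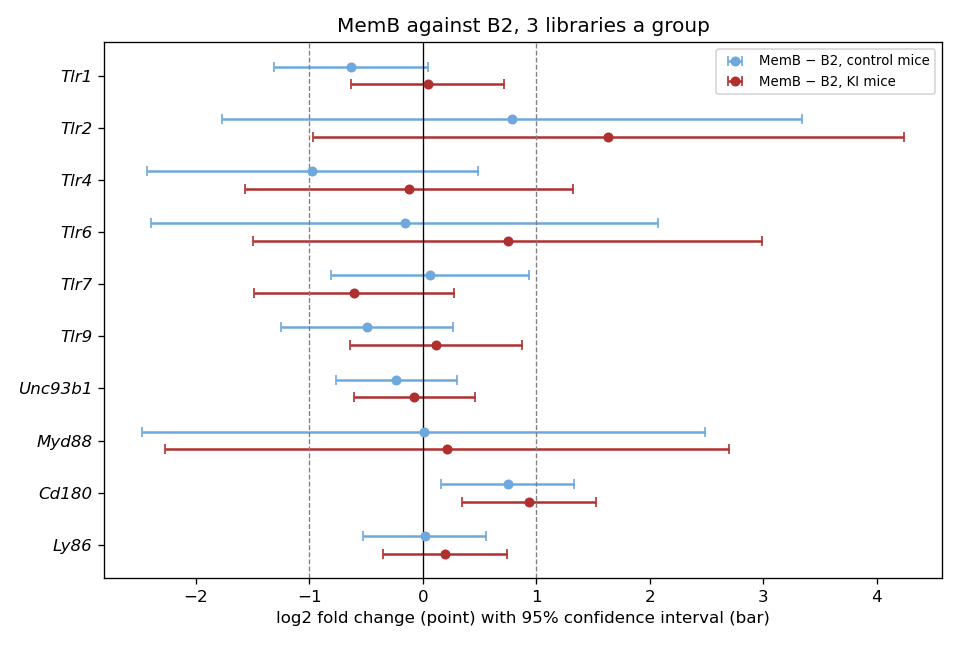
Log2 fold change of MemB against B2 for each member in control and in KI mice (points) with its 95% confidence interval (bars), from 3 libraries a group, and dashed lines at -1 and 1. The 2 Cd180 intervals are the only ones that do not include 0, before adjustment for the number of genes tested.

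The promoters of this pair are shown because Cd180 passed the test between the cell types and its partner did not. They come from RefSeq (GRCm38.p6, 250 bases before to 50 after the annotated start), on the plus strand at chr13:102693297-102693596 for Cd180 and chr13:37345095-37345394 for Ly86. Capitals mark the ETS motif GGAAGT, here read on the other strand as ACTTCC:
Cd180: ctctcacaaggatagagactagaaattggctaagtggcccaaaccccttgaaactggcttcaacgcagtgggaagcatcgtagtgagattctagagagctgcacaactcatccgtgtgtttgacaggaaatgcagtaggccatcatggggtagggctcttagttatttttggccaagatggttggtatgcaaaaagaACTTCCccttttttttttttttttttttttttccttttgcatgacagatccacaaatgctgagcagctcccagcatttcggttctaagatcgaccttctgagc
Ly86: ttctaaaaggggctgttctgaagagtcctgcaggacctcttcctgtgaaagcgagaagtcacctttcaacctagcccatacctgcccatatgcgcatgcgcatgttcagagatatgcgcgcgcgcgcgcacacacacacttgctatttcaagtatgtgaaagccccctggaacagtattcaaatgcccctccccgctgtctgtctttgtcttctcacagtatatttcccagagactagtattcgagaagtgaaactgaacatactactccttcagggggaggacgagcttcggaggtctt
Of 4 motifs searched on both strands, GGAAGT was in at least 1 promoter of 6 of the 7 members that the table holds (Cd180, Myd88, Tlr1, Tlr2, Tlr6 and Tlr9, but not Ly86) and of 26.5% of all 27025 genes. Counted by promoter, of which Tlr1, Tlr6 and Cd180 have 2 each, it was in 8 of 10 and in 23.8% of all 32851. The 2 Cd180 promoters, which start at 102693297 and 102693308, overlap and hold the same site, so that this site is counted for both. The E-box CAGGTG was found for Tlr1, Tlr2 and Tlr9 (22.6% of all genes), the octamer ATGCAAAT for Tlr9 (1.97%) and the NF-kB site of the kappa light chain enhancer for none (0.174%). A match describes the letters only.

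Among the endosomal genes, Unc93b1 was the most even. It had 204, 222 and 285 CPM in control B2, 249.7, 203 and 229 CPM in KI B2, 159, 150.4 and 294 CPM in control MemB, and 273, 201 and 173 CPM in KI MemB. All 4 groups overlapped, and the averaged difference between MemB and B2 was -0.16 (interval -0.53 to 0.22, log2). Tlr9 had 114, 108 and 94.9 CPM in control B2, above all control MemB libraries (94.9, 61.9 and 68.3 CPM), though replicate 3 of B2 and replicate 1 of MemB were nearly equal. In KI mice Tlr9 had 95.1, 61.4 and 38.0 CPM in B2 and 98.3, 62.2 and 50.4 CPM in MemB, which overlapped. Its log2 fold change of MemB against B2 was -0.49 in control mice (interval -1.25 to 0.27) and 0.12 in KI mice (interval -0.64 to 0.88).

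Tlr7 ranged more widely within each group. It had 36.6, 94.1 and 70.3 CPM in control B2, 66.8, 56.8 and 109 CPM in KI B2, 41.5, 98.8 and 69.3 CPM in control MemB, and 29.9, 73.6 and 49.0 CPM in KI MemB. Every pair of groups overlapped. The log2 fold change of KI against control was 0.21 in B2 (interval -0.67 to 1.08) and -0.46 in MemB (interval -1.34 to 0.42), and their difference was -0.67 (adjusted p = 0.854 by edgeR).

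Among the surface receptors, Tlr1 had 136, 138 and 187 CPM in control B2, 124, 85.9 and 163 CPM in KI B2, 76.0, 113 and 107 CPM in control MemB, and 73.4, 206 and 105 CPM in KI MemB. Its 3 control MemB libraries all lay below the control B2 libraries, as did those of Tlr9, and 5.95% of all genes showed this. The log2 fold change of Tlr1 was -0.64 in control mice (interval -1.32 to 0.04, adjusted p = 0.502) and 0.04 in KI mice (interval -0.64 to 0.72, adjusted p = 0.989 by edgeR). When Tlr1 and Tlr6 were summed, which was tried with their values known, the sum had a log2 fold change of -0.61 (adjusted p = 0.502 by edgeR) in control mice and 0.09 (adjusted p = 0.972) in KI mice. Tlr6 itself had 1.14, 19.6 and 2.85 CPM in control B2, 1.69, 13.4 and 4.65 CPM in KI B2, 2.96, 10.1 and 8.06 CPM in control MemB, and 7.94, 10.2 and 14.95 CPM in KI MemB.

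Tlr2 was the most scattered member, with 8.33, 5.80 and 2.42 CPM in control B2, 2.01, 2.06 and 3.73 CPM in KI B2, 15.03, 13.2 and 0.300 CPM in control MemB, and 20.1, 1.26 and 2.93 CPM in KI MemB. High and low libraries occurred in both MemB groups, and the averaged log2 fold change of 1.21 between MemB and B2 had an interval of -0.61 to 3.03. Tlr4 had 29.4, 21.0 and 47.9 CPM in control B2, 28.9, 15.8 and 16.03 CPM in KI B2, 14.7, 28.7 and 6.65 CPM in control MemB, and 30.2, 3.71 and 21.9 CPM in KI MemB. All groups overlapped, and the averaged log2 fold change was -0.55 (interval -1.57 to 0.48). Of the other parts of the lipopolysaccharide receptor, Ly96 was between 0.163 and 26.4 CPM, and Cd14, which macrophages express, had 0 counts in every library, which allows up to 0.102 CPM.

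Myd88, the shared adaptor, was among the 3 lowest members per kb. It had 3.29, 10.4 and 4.94 CPM in control B2, 4.51, 5.09 and 3.24 CPM in KI B2, 7.81, 2.99 and 7.88 CPM in control MemB, and 10.1, 0.460 and 4.33 CPM in KI MemB. Group means were between 148 and 213 counts per library, and all groups overlapped. The Myd88 gene (chr9:119165000-119170486, minus strand, GRCm39) overlaps Acaa1a on the other strand.

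**Figure D5:**
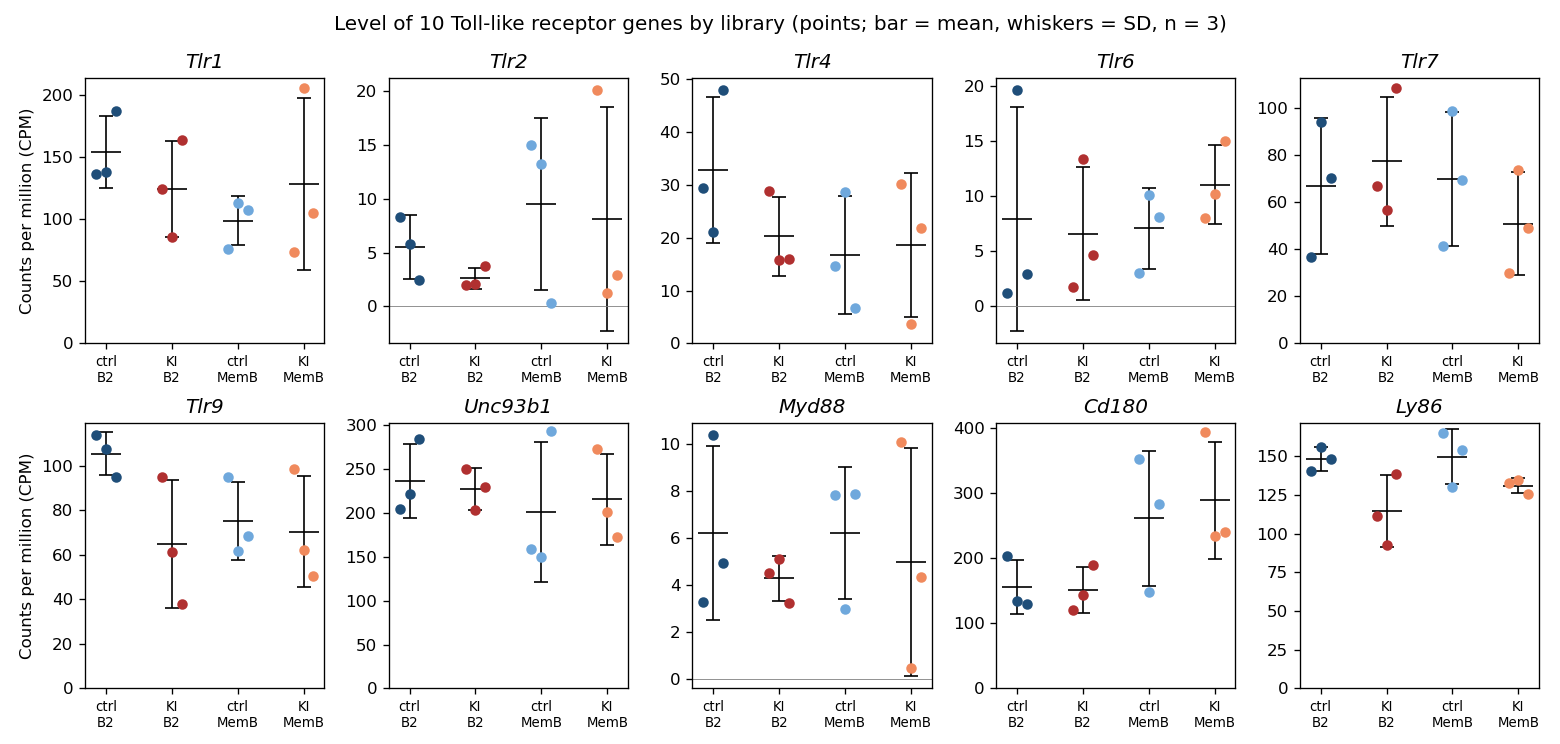
CPM of each member in each library (points) by group, with the group mean (bar) and SD (whiskers, n = 3), on a linear axis that differs between panels. Cd180 lies higher in MemB than in B2 except in control MemB replicate 2, Ly86 has the smallest spread within groups, and SD whiskers of Tlr2 and Tlr6 run below 0 because the SD exceeds the mean.

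The rest of the TLR pathway was taken from 6 lists of 79 other genes, of which 69 were tested. By edgeR, 0 of the 69 passed an adjusted p below 0.05 in KI against control in MemB (0.31% of all genes did). There, 8 had an unadjusted p below 0.05 (11.1% of all genes) and 3 passed by DESeq2 (Icosl, Irak3 and Cd69, beside 3.2% of all genes). Icosl was at 19.8 to 28.6 CPM in control MemB and 38.5 to 62.7 CPM in KI MemB. Cd69 was at 55.4 to 91.3 CPM in control MemB and 147 to 196 CPM in KI MemB. Libraries of KI and control MemB separated for 12.1% of all genes. In B2, 0 passed by edgeR or DESeq2 (0.0066% and 0.284% of all genes), and 1 had an unadjusted p below 0.05 (5.74% of all genes). In the difference of the KI effect between MemB and B2, 0 passed by either tool (0.066% and 1.34% of all genes), and 8 had an unadjusted p below 0.05 (8.49% of all genes). Their median log2 fold change was 0.09 in MemB and -0.07 in B2, beside -0.03 and -0.03 over all genes. In MemB against B2 averaged over the genotypes, 3 of the 69 were DEGs (2 higher, 1 lower) and 2 more passed an adjusted p below 0.05 alone, which makes 5, against 1.01% and 1.36% of all genes. By DESeq2, 7 passed the adjusted p, against 4.55% of all genes.

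Of the 21 adaptors and kinases tested, 1 rose: Ticam2, the bridging adaptor TRAM of TLR4 signalling from endosomes, was at 3.21 to 19.4 CPM in B2 and 13.8 to 74.7 CPM in MemB (log2 fold change 2.37, SE 0.51, adjusted p = 0.00988 by edgeR). This call was lost without control MemB replicate 2 (adjusted p = 0.0591) or KI MemB replicate 3 (adjusted p = 0.0602), and without replicate 3 of every group (2.02, adjusted p = 0.161). Of the 14 co-receptors, chaperones and trafficking genes tested, 1 passed the adjusted p: Hsp90b1, which encodes gp96, the chaperone that folds TLRs, with a log2 fold change of 0.55 (SE 0.14, adjusted p = 0.0400 by edgeR). It did not pass by DESeq2 (adjusted p = 0.0662). Its log2 fold change stayed between 0.45 and 0.63 without any single library, but the call was lost without any 1 of 9 libraries (adjusted p up to 0.129). It was also lost with upper-quartile normalization (adjusted p = 0.0853), with a non-robust fit (adjusted p = 0.0973), without replicate 3 of every group (adjusted p = 0.243) and without the 3 libraries with mast cell transcripts (0.52, adjusted p = 0.244) by edgeR. The plasma cell markers given above were also higher in KI MemB than in KI B2, and their part in the Hsp90b1 difference was not tested. By edgeR, neither the 5 interferon regulatory factors, the 12 inhibitors of TLR signalling nor the 3 other TLRs that were tested had a member that passed.

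Of 15 genes that TLR ligands induce in B cells, 3 passed, in both directions. Cd80, a costimulatory ligand that also marks memory B cells, was at 4.38 to 26.2 CPM in B2 and 79.7 to 131 CPM in MemB (log2 fold change 2.53, SE 0.33, adjusted p = 1.35e-05). Icosl, the ligand of ICOS on T cells, was at 85.5 to 149 CPM in B2 and 19.8 to 62.7 CPM in MemB (log2 fold change -1.82, SE 0.26, adjusted p = 5.40e-05). Cd69, an early activation marker that retains cells in tissue, passed the adjusted p alone (log2 fold change -0.98, SE 0.20, adjusted p = 0.00464 by edgeR). In control mice alone the log2 fold changes of Cd80, Icosl and Cd69 were 2.63, -2.37 and -1.53, and all 3 were DEGs, while in KI mice alone Cd80 (2.44) was the DEG among them by edgeR and Icosl was also one by DESeq2 (-1.26, adjusted p = 0.0152). The call of Cd69 in control mice was lost without control MemB replicate 1 (adjusted p = 0.0622), and that of Cd80 in KI mice without KI B2 replicate 1 (adjusted p = 0.0552) or 3 (adjusted p = 0.0518). Cd80 in control mice was lost when only the 6 libraries compared were fitted (adjusted p = 0.0513). Without the 3 libraries with mast cell transcripts, which leaves 1 control MemB library, the calls of Icosl (-2.56, adjusted p = 0.0624) and Cd69 (-1.41, adjusted p = 0.200) in control mice and of Cd80 in KI mice (2.33, adjusted p = 0.0525) were lost by edgeR, while their log2 fold changes stayed close to those from all libraries. As the difference of KI effects above is also the difference of MemB against B2 between the genotypes, none of the 3 was shown to differ between them.

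Among the TLRs that are not members, Tlr3 was between 0.150 and 13.8 CPM and did not pass in any comparison. Tlr5 had 0 counts in all 12 libraries, and Tlr11 had 1 count in 1 library. Tlr8 reached at most 4.21 CPM and Tlr12 at most 6.49 CPM. Tlr13, a receptor for bacterial ribosomal RNA, had 250 counts in KI B2 replicate 1 and 288 in KI B2 replicate 3 but at most 4 in the other 10 libraries, so that it did not pass the filter and was not tested.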

How the data were processed

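RNA of sorted PerC B2 and MemB was amplified (Ovation RNA-seq System V2) and sequenced as paired reads of 50 bp. Per the labels and the methods of the study, the authors used cutadapt 4.5 for trimming, STAR 2.7.11a for alignment to mm39 and RSEM 1.3.3 for counts. They deposited RSEM expected counts per gene, not normalized, in 1 table of 12 libraries. The gene annotation and strand setting are not given in the sources used here, and 0 columns were left unassigned. Expected counts were rounded and tested with edgeR 4.0.16 (R 4.3.3) by robust quasi-likelihood fits of 4 group means over all 12 libraries, with TMM, filterByExpr (minimum count 10) and Benjamini-Hochberg adjustment over all genes tested. SE is the size of the log2 fold change over the square root of F. CPM are TMM-normalized. DESeq2 1.42.0 and other normalizations, filters, fits and left-out libraries were alternatives, and the edgeR steps were tested on simulated data. Replicates are labelled biological, with no mouse named. Counting errors and floors cover reads only, since amplified reads are not independent and no molecular identifiers are mentioned.

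The 10 members, the 6 pathway lists and the marker lists were chosen with earlier results of these data known. Named beyond the members were pathway genes that passed a test, the other TLRs, Ly96 and Cd14, Gpr34, and the 3 genes most like Cd180, Tlr7 and Tlr9. Protein sequences were not used here, so the planned protein comparison of Tlr1 and Tlr6 was replaced by one of their coding sequences (GENCODE M39, aligned with Biopython 1.88). Lengths per kb are the union of exons. Cyld and Tpsb2 were not found in the table under these symbols.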

Additional observations from a re-analysis of the deposited data

How the results depend on the processing

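None of the 10 members became a DEG in any comparison under any alternative. Of 1366 refits of a member, 11 had an adjusted p below 0.05, all of them Cd180 in MemB against B2 averaged over the genotypes. In that comparison the count of members past the adjusted p went from 1 to 0 with upper-quartile normalization (Cd180 0.76, adjusted p = 0.0633), with a non-robust fit (adjusted p = 0.0858), without the 3 libraries with mast cell transcripts (an alternative chosen after seeing the data), and was 0 to 1 when single libraries, or replicate 3 of every group, were left out; over all alternatives the adjusted p of Cd180 was between 0.00265 and 0.483 by edgeR and DESeq2. The Cd180 to Ly86 ratio, which was chosen after its values had been seen and moves mainly with Cd180, had an exact permutation p of 0.045 or less without any single library and of 0.225 without the mast cell libraries. Without replicate 3 of every group its log2 difference was 0.65 against 0.69 with all libraries, and the 36 arrangements left cannot give a p below 0.05.

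Same-numbered libraries did not deviate together: correlations of their deviations were between -0.0139 and 0.0344 over 12 pairs, and 4 of 12 correlated best with their own number, so that the numbers were not taken as a pairing. Xist was nevertheless high in replicate 3 of all 4 groups and low in the other 8 libraries, so that the number goes with Xist across groups. Whether same-numbered libraries come from the same mice is not given in the sources used here. Male and female mice are named in the methods of the study, but the sex behind each library is not given either. Neither sex nor replicate number was a term of the main fits. With a replicate block Cd180 kept its call in the averaged comparison (0.80, adjusted p = 0.0222), and the count of DEGs in the difference of KI effects was 6. The block turned the sign of differences that passed in neither fit: Tlr4 in KI against control in MemB (-0.072), Tlr6 (0.041) and Cd180 (0.013) in B2, Myd88 in the averaged comparison (-0.16), Tlr2 (-0.11) and Tlr6 (0.67) in MemB against B2 in control mice, and Tlr1 (-0.066) and Myd88 (-0.41) in KI mice.

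The count of all DEGs depended more on the setting. In KI against control in MemB it was 43, and 90 without the filter, 480 by DESeq2, 22 with a non-robust fit, 15 from the 6 libraries compared, 14 without the mast cell libraries, and 15 to 50 with a replicate left out. In B2 it was 1, and 8, 43 by DESeq2, 3 without the mast cell libraries and 1 to 2 with a replicate left out. For the difference it was 10, and 5 with upper-quartile normalization, 3 without immunoglobulin and ribosomal RNA genes, 44 without the filter, 203 by DESeq2, 4 with a non-robust fit and 5 to 10 with a replicate left out. For MemB against B2 averaged it was 153, and 236 without the filter, 591 by DESeq2, 87 without the mast cell libraries and 88 to 157 with a replicate left out, while the count past the adjusted p alone was 206, and 689, 95 and 98 to 197. In control mice it was 40, and 96, 398, 24 with a non-robust fit, 15 without the mast cell libraries and 18 to 42. In KI mice it was 55, and 105, 392 and 27 to 60. The cause was not tested.

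Member differences that turned sign had no adjusted p below 0.05 in either fit, and the cause was not tested. One of them, Cd180 in control mice, had an unadjusted p of 0.0148 with all 12 libraries (edgeR). Without the mast cell libraries these were Tlr4 (-0.61), Tlr9 (0.20), Ly86 (0.023) and Myd88 (0.75) in KI against control in MemB, Tlr7 in B2 (-0.11), Tlr4 in the difference (-0.066), Tlr7 (0.14) and Myd88 (-0.50) in the averaged comparison, Tlr6 (0.36), Cd180 (-0.071), Ly86 (-0.19) and Myd88 (-1.05) in control mice, and Tlr9 in KI mice (-0.15). With upper-quartile normalization they were Cd180 in B2 (0.0017), Ly86 (-0.049) and Myd88 (-0.053) in control mice, and Tlr1 in KI mice (-0.010). With a replicate left out, the ranges in KI against control in MemB were -0.15 to 0.66 for Tlr1, -2.18 to 0.27 for Tlr2, -0.38 to 0.80 for Tlr4, -0.41 to 0.12 for Tlr9, -0.14 to 0.43 for Cd180, -0.10 to 0.63 for Unc93b1 and -1.37 to 0.21 for Myd88. In B2 they were -1.31 to 1.71 for Tlr6, -0.12 to 0.53 for Tlr7, -0.33 to 0.22 for Cd180, -0.14 to 0.10 for Unc93b1 and -0.82 to 0.054 for Myd88. For the difference they were -1.09 to 1.40 for Tlr2, -0.17 to 1.497 for Tlr4, -1.06 to 1.96 for Tlr6, -0.10 to 0.68 for Cd180, -0.038 to 0.54 for Unc93b1 and -0.84 to 0.74 for Myd88. In the averaged comparison they were -0.19 to 1.28 for Tlr6, -0.35 to 0.0025 for Tlr9 and -0.41 to 0.40 for Myd88. In control mice they were -0.66 to 1.81 for Tlr6, -0.27 to 0.38 for Tlr7, -0.056 to 0.11 for Ly86 and -0.33 to 0.59 for Myd88. In KI mice they were -0.48 to 0.42 for Tlr1, -0.31 to 2.41 for Tlr2, -0.66 to 0.37 for Tlr4, -0.20 to 0.50 for Tlr9, -0.28 to 0.080 for Unc93b1 and -0.83 to 0.75 for Myd88. The lone library of a group reduced to 1 was assumed to vary like the others.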

Other observations

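Across the 12 libraries, which share genotype and cell type in groups of 3, the genes whose log2 CPM was most like that of a member among 15027 genes were these, as a description. For Cd180 they were Tln1 (Pearson r = 0.91), Il2 (0.89) and Prpf19 (0.88). For Tlr7 they were Snora73b (0.94), Cd151 (0.92) and Gm19144 (0.85). For Tlr9 they were Spty2d1 (0.89), X9130002K18Rik (0.87) and X5830408C22Rik (0.86).

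Tlr7 lies on the X chromosome. Xist was between 2417 and 3236 CPM in the 4 libraries with replicate number 3 and between 29.3 and 66.6 CPM in the other 8. Tlr7 was between 49.0 and 109 CPM (median 69.8) in the former and between 29.9 and 98.8 CPM (median 61.8) in the latter, which overlapped. Tlr8, beside it on the X chromosome, was between 0.0300 and 1.63 CPM and between 0 and 4.21 CPM in these libraries.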
